A study of Mus musculus with 6 samples.

Results

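The genes described here make, carry, degrade and sense prostaglandins: Pla2g4a, Ptgs1, Ptgs2, Ptges, Akr1b3, Slco2a1, Hpgd, Ptger2, Ptger4 and Ptgfr. They were chosen by symbol as 10 of the 35415 genes in the count table, and all 10 had enough counts to be tested. They were measured by RNA sequencing of whole ovaries from 3 wild-type and 3 Rnf111+/- mice, all aged 3 months and taken in estrus. The heterozygous mice came from CRISPR-Cas9 editing of Rnf111, which encodes Arkadia, a ubiquitin ligase of the TGF-beta pathway, and the study asks how loss of 1 copy of this gene alters the ovary in relation to premature ovarian insufficiency. Each library is labelled as a separate mouse. Strain, the edited position and the edited line sequenced are not stated in the labels. Levels are counts per 1000000 counts (CPM) after scaling by the trimmed mean of M values (TMM), and a gene was called when its adjusted p in edgeR's quasi-likelihood test lay under 0.05.

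Prostaglandins are lipid signals made from arachidonic acid. A phospholipase frees the acid from membranes, a cyclooxygenase turns it into prostaglandin H2, and terminal synthases make the active forms from that intermediate. In the ovary, prostaglandin E2 takes part in ovulation and cumulus expansion, and prostaglandin F2-alpha drives regression of the corpus luteum. A transporter takes prostaglandins into cells and a dehydrogenase inactivates them there.

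Library totals ran from 38261449 to 39474515 counts. Rnf111 was at 53.8, 53.5 and 54.4 CPM in wild-type and at 44.2, 44.9 and 44.7 CPM in heterozygous ovaries, so the targeted gene was lower in each library labelled heterozygous. Wild-type replicate 3 stood apart. Against the mean of the other wild-type libraries it differed by more than 1.5-fold for 5 of the 10 prostaglandin genes and for 20.5% of all genes tested. Its summed level of 6 oviduct epithelium markers was 248 CPM against 63.4 to 83.3 CPM in the other 5 libraries, and Ovgp1, a secreted oviduct glycoprotein, was at 146 CPM there against 1.85 to 8.05 CPM elsewhere. Its 9 granulosa markers summed to 3938 CPM against 7580 to 10660 CPM, and its 9 macrophage and myeloid markers to 519 CPM against 319 to 444 CPM. The sums of 8 oocyte markers (166 to 304 CPM) and 7 theca and interstitium markers (10050 to 15300 CPM) showed ovarian tissue in all libraries. The genotype tests below are therefore given with and without wild-type replicate 3, which leaves 2 wild-type libraries.

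With all libraries, 1 of the 10 genes rose in heterozygous ovaries (Hpgd) and none fell by edgeR. The background share of called genes was 3.90% higher and 5.74% lower. At an unadjusted p under 0.05, 2 were higher and 2 lower, and no share over all genes was taken at that threshold. DESeq2 called 1 higher and 2 lower among the 10, and 2615 genes in all. Limma-voom called 1 and 0 among the 10, and 1593 genes in all, beside 1623 by edgeR. The edgeR shares are therefore not the background of these other counts. Without wild-type replicate 3, 2 rose (Hpgd and Ptgfr) and 2 fell (Pla2g4a and Ptgs1), against a background of 7.37% higher and 8.82% lower. The genotypes did not overlap for 4 of the 10 genes, 2 higher and 2 lower, against 32.0% of all genes tested, a share near the background. With wild-type replicate 3 left out they did not overlap for 5 of the 10, 3 higher and 2 lower, against 47.5%. The median log2 fold change of the 10 genes was -0.05, and 0.20 without that library, beside -0.008 and 0.009 over all genes tested.

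**Figure D1:**
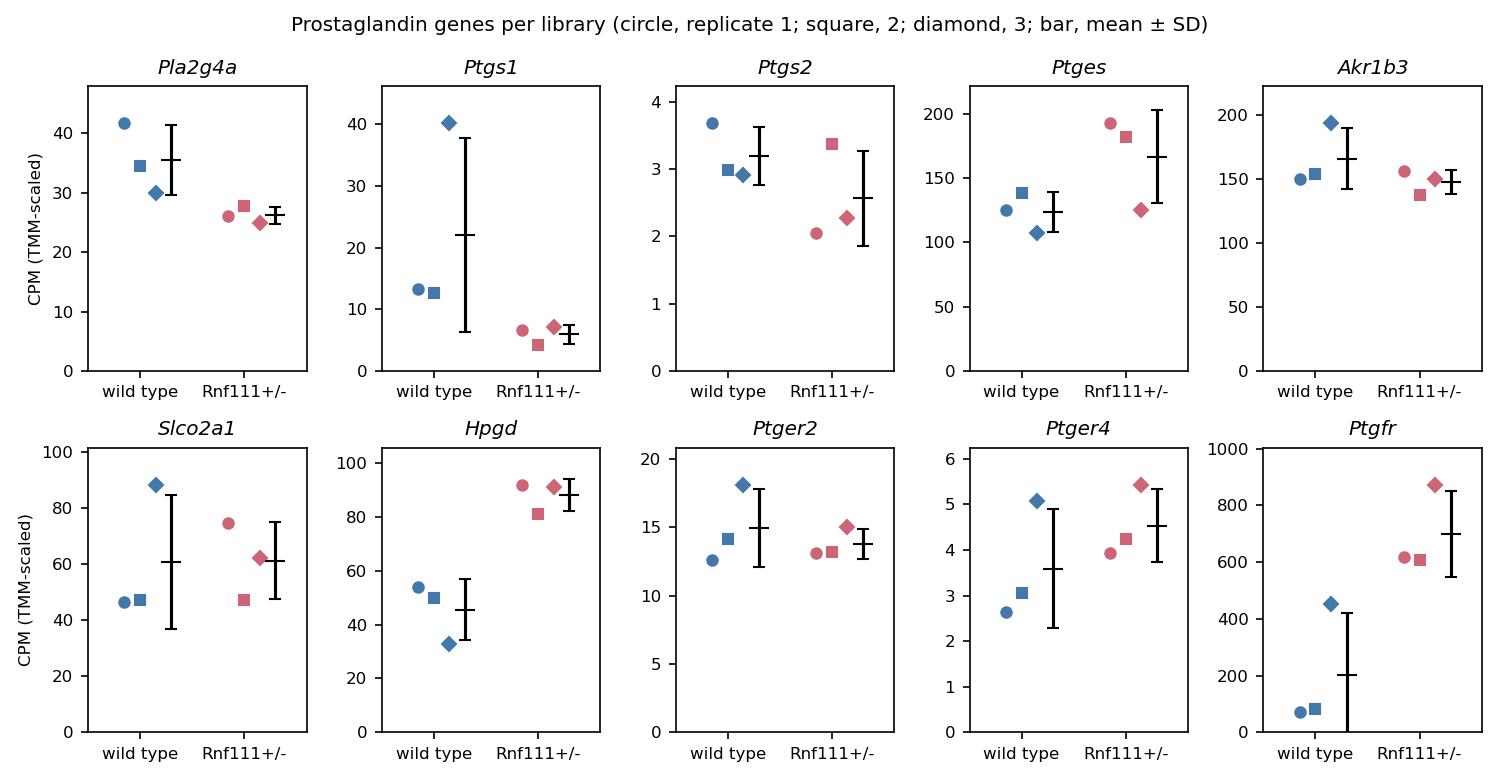
Level of each prostaglandin gene in CPM (vertical axes, each from 0) in the 3 wild-type (blue) and 3 Rnf111+/- (red) libraries; points are libraries, and the black bar is the mean with its SD, cut off at 0 for Ptgfr. Wild-type replicate 3 (blue diamond) is far above the other wild-type libraries for Ptgs1, Slco2a1 and Ptgfr and below them for Hpgd.

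**Figure D2:**
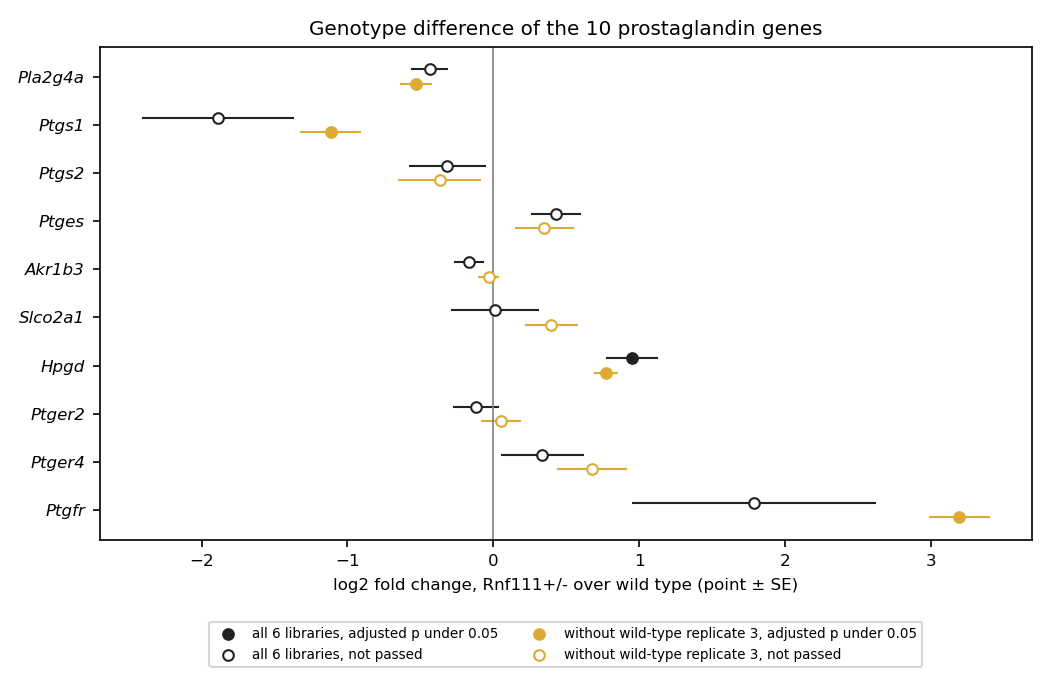
Log2 fold change of Rnf111+/- over wild type (horizontal axis, point ± SE) for the same genes, with all 6 libraries (black) and without wild-type replicate 3 (gold); filled points passed at an adjusted p under 0.05. Hpgd passed in both fits, and Pla2g4a, Ptgs1 and Ptgfr passed without wild-type replicate 3.

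Pla2g4a encodes cytosolic phospholipase A2-alpha, which frees arachidonic acid. It was at 41.7, 34.6 and 30.0 CPM in wild-type and at 26.1, 27.7 and 24.9 CPM in heterozygous ovaries. The heterozygous values all lay below the wild-type values, closest to wild-type replicate 3. The log2 fold change was -0.43 ± 0.13 (SE, adjusted p = 0.0669), short of the threshold. Without wild-type replicate 3 Pla2g4a fell by 0.53 ± 0.11 on the log2 scale (adjusted p = 0.00656). With all libraries its adjusted p was 0.026 by DESeq2 and 0.0385 by edgeR when low counts were not filtered, and both passed. Pla2g4a did not pass by limma-voom (adjusted p = 0.0858). In edgeR it also stayed short with 2 other scalings (0.0705 and 0.0874), a stricter filter (0.073) and a block for replicate number (0.0624). Leaving out any library other than wild-type replicate 3 gave adjusted p of 0.144 to 0.212 by edgeR.

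The cyclooxygenases are encoded by Ptgs1, the form made steadily in many tissues, and Ptgs2, the inducible form that the ovulatory signal raises in granulosa cells. In the reference annotation Ptgs2 lies next to Pla2g4a, with no protein-coding gene between them. Ptgs1 was at 13.3, 12.7 and 40.2 CPM in wild-type and at 6.60, 4.21 and 7.05 CPM in heterozygous ovaries. Every heterozygous library was below every wild-type library, and wild-type replicate 3 was 3.10-fold above the mean of the other wild-type libraries. With that library included, the log2 fold change was -1.89 ± 0.52 (3.70-fold lower, adjusted p = 0.0803). Without it, the fall was smaller and passed (log2 -1.11 ± 0.21, a 2.16-fold fall, adjusted p = 0.00451). With all libraries Ptgs1 also passed with DESeq2 (adjusted p = 0.0143) and in edgeR with a block for replicate number (0.0274). It did not pass by limma-voom (0.0902). In edgeR it stayed short with 2 other scalings (0.0829 and 0.0838), without a low-count filter (0.227) and with a stricter filter (0.0657). Leaving out any library other than wild-type replicate 3 gave adjusted p of 0.0791 to 0.244 by edgeR.

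Ptgs2 was low throughout, at 3.68, 2.98 and 2.91 CPM in wild-type libraries (141, 115 and 114 counts) and at 2.04, 3.37 and 2.27 CPM in heterozygous libraries (82, 132 and 87 counts). The groups overlapped, with heterozygous replicate 2 above 2 of the wild-type libraries. Its log2 fold change of -0.32 ± 0.26 did not pass with all libraries (adjusted p = 0.509), nor did -0.37 ± 0.29 without wild-type replicate 3 (adjusted p = 0.437).

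The promoters of this gene pair are shown because Ptgs1 fell without wild-type replicate 3 and Ptgs2 passed in neither fit. Each is the 250 bases before the annotated start, 5′ to 3′ on the gene's strand, from RefSeq on build GRCm38.p6 (the counts were made on GRCm39 per the submitters' processing notes). Capitals mark matches, on either strand, to any of 6 motifs: the SMAD box CAGACA, the cAMP response element core TGACG, the RUNX site TGTGGT, the SF-1 site AAGGTCA, the E-box CANNTG and the TATA box TATAAA. The Ptgs1 window is chr2:36230176-36230425, plus strand, and the Ptgs2 window is chr1:150099781-150100030, plus strand.
Ptgs1: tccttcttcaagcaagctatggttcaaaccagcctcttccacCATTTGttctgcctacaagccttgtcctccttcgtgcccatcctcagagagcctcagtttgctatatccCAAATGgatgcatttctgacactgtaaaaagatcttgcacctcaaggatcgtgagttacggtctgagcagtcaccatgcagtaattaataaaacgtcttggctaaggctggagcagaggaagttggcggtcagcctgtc
Ptgs2: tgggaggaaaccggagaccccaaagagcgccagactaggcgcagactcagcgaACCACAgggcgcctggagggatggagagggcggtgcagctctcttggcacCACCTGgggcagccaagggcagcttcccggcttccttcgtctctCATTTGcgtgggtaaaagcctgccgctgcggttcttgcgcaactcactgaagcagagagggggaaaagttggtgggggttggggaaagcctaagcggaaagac
Both hold 2 E-boxes, beginning 208 and 139 bases before the start in Ptgs1 and 147 and 103 bases before it in Ptgs2. Ptgs2 also holds a RUNX match on the opposite strand, 197 bases before the start. No 2 marked matches overlap. An E-box is in 66.2% and a RUNX match in 14% of 32851 windows of this length in the RefSeq table.

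The summed levels of several marker lists were lower in heterozygous ovaries, as Ptgs1 and Pla2g4a were, though single markers also rose. Of 9 endothelial markers, 5 fell (4 without wild-type replicate 3), and their sum was 446 to 517 CPM in wild-type and 332 to 383 CPM in heterozygous libraries. Of 8 smooth muscle and pericyte markers, 3 fell in each fit (1204 to 1503 against 761 to 1001 CPM), and of 7 ovarian surface epithelium markers 3 fell and 1 rose in each fit (498 to 549 against 422 to 466 CPM). Of 6 oviduct epithelium markers 5 were tested, and 1 fell in each fit (Epcam). Their sums were 80.2, 83.3 and 248 CPM in wild-type and 63.4, 70.9 and 69.5 CPM in heterozygous libraries. Of 7 theca and interstitium markers 3 fell (Hsd3b1, Fdx1 and Mgarp) and 1 rose (Cyp17a1) in each fit. Their sums were 14330 to 15300 against 10050 to 13020 CPM. Cyp17a1 was at 2.48, 4.48 and 1.48 CPM in wild-type and at 174, 158 and 259 CPM in heterozygous ovaries, opposite to the sum. Insl3 was also higher in every heterozygous library but did not pass. Of 9 macrophage and myeloid markers 0 passed with all libraries by edgeR (0 higher and 1 lower at an unadjusted p under 0.05, 0 and 1 by DESeq2, 0 and 0 by limma-voom), 3 rose without wild-type replicate 3, and their sums overlapped (319 to 519 against 343 to 444 CPM). No marker in these lists was without counts. The part of these cells in the falls was not tested, and in whole ovaries fewer cells of a type and less RNA per cell cannot be told apart.

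Ptges encodes microsomal prostaglandin E synthase-1, the inducible enzyme that makes prostaglandin E2. It was at 125, 138 and 107 CPM in wild-type and at 193, 182 and 125 CPM in heterozygous ovaries. Heterozygous replicates 1 and 2 were above all wild-type libraries, and heterozygous replicate 3 lay within their range. The log2 fold change was 0.43 ± 0.17 (adjusted p = 0.169), and 0.35 ± 0.20 without wild-type replicate 3 (adjusted p = 0.326). Leaving out heterozygous replicate 3 made it pass, at 0.61 ± 0.11 (adjusted p = 0.0383). Leaving out any other library did not (adjusted p of 0.19 to 0.383 by edgeR). With all libraries Ptges did not pass by DESeq2 (0.06) or limma-voom (0.164), but passed in edgeR with a block for replicate number (0.0337).

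Akr1b3, aldose reductase, can reduce prostaglandin H2 to prostaglandin F2-alpha. It was at 150, 154 and 194 CPM in wild-type and at 156, 138 and 150 CPM in heterozygous ovaries, and the groups overlapped. The log2 fold change was -0.17 ± 0.11 with all libraries (adjusted p = 0.374) and -0.03 ± 0.07 without wild-type replicate 3 (adjusted p = 0.824), and neither passed.

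Slco2a1 encodes the prostaglandin transporter, which brings prostaglandins into cells. It was at 46.4, 47.3 and 88.3 CPM in wild-type and at 74.5, 47.1 and 62.1 CPM in heterozygous ovaries. The highest and the lowest library were both wild type. Its log2 fold change was 0.01 ± 0.30 (adjusted p = 0.986), and 0.40 ± 0.18 without wild-type replicate 3 (adjusted p = 0.205).

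Hpgd encodes 15-hydroxyprostaglandin dehydrogenase, the enzyme that inactivates prostaglandins E2 and F2-alpha once they are inside a cell. It was at 54.1, 49.8 and 32.7 CPM in wild-type and at 91.9, 81.0 and 91.2 CPM in heterozygous ovaries, means of 45.5 ± 11.3 and 88.0 ± 6.07 CPM (SD, n = 3 each). All heterozygous libraries were above all wild-type libraries, and wild-type replicate 3 was the lowest of the 6. Hpgd rose 1.93-fold (log2 0.95 ± 0.18, adjusted p = 0.02). Without wild-type replicate 3 the rise was 1.71-fold (log2 0.77 ± 0.08, adjusted p = 0.000124). The call was lost without heterozygous replicate 1, 2 or 3 (adjusted p = 0.0718, 0.0594 and 0.0815), with log2 fold changes of 0.92, 1.02 and 0.93. It held with DESeq2, limma-voom and both other scalings.

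Among the marker lists, oocyte markers moved in the same direction as Hpgd, with 5 of 8 rising in each fit (sums of 166 to 185 CPM in wild-type and 225 to 304 CPM in heterozygous libraries). Of 9 granulosa markers 0 passed with all libraries by edgeR (2 higher and 1 lower at an unadjusted p under 0.05, 2 and 0 by DESeq2, 1 and 0 by limma-voom) and 2 rose without wild-type replicate 3, with sums of 3938 to 8362 against 7690 to 10660 CPM, and the lowest sum was that of wild-type replicate 3. Their part in the Hpgd result was not tested.

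The Hpgd promoter is shown because Hpgd passed in both fits, at chr8:56294302-56294551, plus strand of GRCm38.p6 in the same form.
Hpgd: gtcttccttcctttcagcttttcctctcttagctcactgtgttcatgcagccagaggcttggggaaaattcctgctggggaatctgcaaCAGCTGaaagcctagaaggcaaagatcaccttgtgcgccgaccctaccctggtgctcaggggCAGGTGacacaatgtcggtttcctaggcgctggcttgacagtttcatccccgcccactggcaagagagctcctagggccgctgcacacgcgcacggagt
It holds 2 E-boxes, beginning 161 and 99 bases before the start, and none of the other 5 motifs. Bases shortly after this start were not found in a GENCODE M21 transcript of Hpgd. The same check found those of Ptgs1, Ptgs2 and Ptgfr in transcripts of their genes. It did not find those of Ptger2, whose window is not shown but enters the motif counts given below. The Hpgd distances therefore hold for the RefSeq start only.

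The receptors were Ptger2 and Ptger4, which bind prostaglandin E2 and raise cyclic AMP, and Ptgfr, which binds prostaglandin F2-alpha and signals through Gq. Ptger2, the receptor of cumulus expansion, was at 12.6, 14.1 and 18.1 CPM in wild-type and at 13.1, 13.2 and 15.02 CPM in heterozygous ovaries. The groups overlapped, and its log2 fold change was -0.12 ± 0.16 with all libraries (adjusted p = 0.693) and 0.05 ± 0.14 without wild-type replicate 3 (adjusted p = 0.837).

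Ptger4 was at 2.64, 3.06 and 5.08 CPM in wild-type (101, 118 and 199 counts) and at 3.94, 4.24 and 5.43 CPM in heterozygous ovaries (158, 166 and 208 counts). Wild-type replicate 3 lay among the heterozygous libraries, and the other wild-type libraries lay below them. Its log2 fold change did not pass with all libraries (0.34 ± 0.28, adjusted p = 0.513) or without wild-type replicate 3 (0.68 ± 0.24, adjusted p = 0.0818).

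Ptgfr had the widest spread of the 10 genes, with an SD of log2 CPM of 1.59 over the 6 libraries. It was at 71.5, 81.9 and 454 CPM in wild-type and at 618, 606 and 873 CPM in heterozygous ovaries. All heterozygous libraries were above all wild-type libraries, but wild-type replicate 3 was 5.92-fold above the mean of the other wild-type libraries. With all libraries the log2 fold change of 1.79 ± 0.84 missed the threshold (adjusted p = 0.268). Without wild-type replicate 3 Ptgfr rose 9.18-fold (log2 3.20 ± 0.21, adjusted p = 0.000482). Leaving out any other library gave log2 fold changes of 1.39 to 1.89, none of which passed by edgeR.

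Luteal markers were compared beside Ptgfr, which luteal cells express. Of 8 markers other than Ptgfr, 2 fell with all libraries (Parm1 and Star) and 0 rose by edgeR. At an unadjusted p under 0.05, 2 were higher and 3 lower, and DESeq2 and limma-voom each called 2 higher and 2 lower. Without wild-type replicate 3, 2 rose (Akr1c18 and Sfrp4) and the same 2 fell. Their sums overlapped, at 8194 to 10620 CPM in wild-type and 9496 to 13950 CPM in heterozygous libraries. Cyp11a1, which is also in the theca and interstitium list, gave 3628 to 6362 CPM of these sums. Sfrp4, a secreted Wnt modulator, was at 178, 268 and 890 CPM in wild-type and at 2427, 1989 and 3433 CPM in heterozygous ovaries. Parm1, which fell in both fits, was at 69.8, 86.8 and 55.0 CPM in wild-type and at 16.0, 14.7 and 14.7 CPM in heterozygous ovaries. Wild-type replicate 3 was the highest wild-type library for Sfrp4 and the lowest for Parm1. Over the 8 markers, its median log2 ratio to the mean of the other wild-type libraries was -0.34. The part of luteal cells in the Ptgfr values was not tested.

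The Ptgfr promoter is shown as the second gene that rose without wild-type replicate 3, at chr3:151837529-151837778, minus strand of GRCm38.p6.
Ptgfr: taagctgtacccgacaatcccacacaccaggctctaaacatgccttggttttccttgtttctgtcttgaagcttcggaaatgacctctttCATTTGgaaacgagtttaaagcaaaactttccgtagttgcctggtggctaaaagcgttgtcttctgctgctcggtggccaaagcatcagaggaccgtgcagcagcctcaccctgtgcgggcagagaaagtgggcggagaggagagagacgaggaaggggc
Its only match is an E-box that begins 160 bases before the start. RefSeq windows were found for 9 of the 10 genes, with 2 starts for Pla2g4a and thus 10 windows. Of these, 9 held an E-box, 2 a TATA box and 1 a RUNX match. The TATA box of Slco2a1 begins 29 bases before the start. The SMAD box, the cAMP response element core and the SF-1 site were in 0 of the 10 windows, and in 17.1%, 17.8% and 4.08% of all windows. Bases at or after the annotated starts, and further upstream, were not searched, so sites there are not covered. A TATA box was in 12.4% of all windows.

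Levels were set side by side between genes only per kilobase of exon, with all annotated exons of a gene joined (GENCODE M21), so unused long exons lower a value. In heterozygous ovaries Ptgfr was highest, at 103 ± 22.3 CPM per kilobase, above Hpgd at 52.3 ± 3.61 and Ptges at 42.4 ± 9.20 CPM per kilobase, whose libraries overlapped. Akr1b3 followed at 17.6 ± 1.12 CPM per kilobase, apart from its neighbours on both sides. Slco2a1 at 4.52 ± 1.01 and Pla2g4a at 4.10 ± 0.222 CPM per kilobase overlapped each other. Ptger2 (2.65 ± 0.211) and Ptgs1 (1.53 ± 0.393 CPM per kilobase) came next without overlap, and Ptger4 (0.682 ± 0.119) and Ptgs2 (0.559 ± 0.155 CPM per kilobase) overlapped at the bottom.

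In wild-type ovaries neighbours in the order overlapped more often, and wild-type replicate 3 set the place of some genes. Ptges (31.4 ± 3.94), Ptgfr (29.9 ± 32.1), Hpgd (27.0 ± 6.72) and Akr1b3 (19.8 ± 2.86 CPM per kilobase) formed an upper group of overlapping neighbours. Akr1b3 lay above the next gene, Ptgs1, without overlap. Ptgs1 (5.68 ± 4.04), Pla2g4a (5.54 ± 0.922), Slco2a1 (4.48 ± 1.77) and Ptger2 (2.88 ± 0.549 CPM per kilobase) formed a lower group of overlapping neighbours. Ptgs2 (0.697 ± 0.0928) and Ptger4 (0.540 ± 0.197 CPM per kilobase) were lowest in this genotype also. With wild-type replicate 3 left out, the wild-type mean of Ptgfr was 11.3 ± 1.09 CPM per kilobase (SD, n = 2), below Akr1b3 at 18.1 ± 0.305 with no overlap, and that of Ptgs1 was 3.34 ± 0.12 CPM per kilobase, below Pla2g4a at 5.97 ± 0.788. Ptges (33.5 ± 2.28) and Hpgd (30.9 ± 1.80 CPM per kilobase) then overlapped at the top. Ptgs1 lay above Ptgs2 per kilobase of exon in every library of both genotypes.

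For the 3 genes with the widest spread, the genes of most similar pattern were found by the smallest root mean square difference of log2 CPM over the 6 libraries, each gene centred on its own mean. Nearest to Ptgfr were Trpm6, a magnesium channel, at a difference of 0.137, and then Plekhg4 (0.265) and the calcium-binding protein gene S100a4 (0.306). Trpm6 was at 3.99, 5.24 and 28.0 CPM in wild-type and at 47.0, 42.6 and 59.2 CPM in heterozygous ovaries. Nearest to Ptgs1 were the interferon-induced gene Ifi27l2a (0.195), Trf, which encodes transferrin (0.229), and Ldhd, a D-lactate dehydrogenase (0.245). Trf was at 144, 131 and 429 CPM in wild-type and at 69.8, 60.2 and 58.0 CPM in heterozygous ovaries. Nearest to Hpgd were Rhobtb1 (0.109), the acyl-CoA thioesterase gene Acot6 (0.113) and Ivns1abp (0.117). Ivns1abp was at 710, 689 and 423 CPM in wild-type and at 1054, 1219 and 1219 CPM in heterozygous ovaries. The measure used all 6 libraries, wild-type replicate 3 included, so the likeness in that library was part of the choice of these 9 genes.

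**Figure D3:**
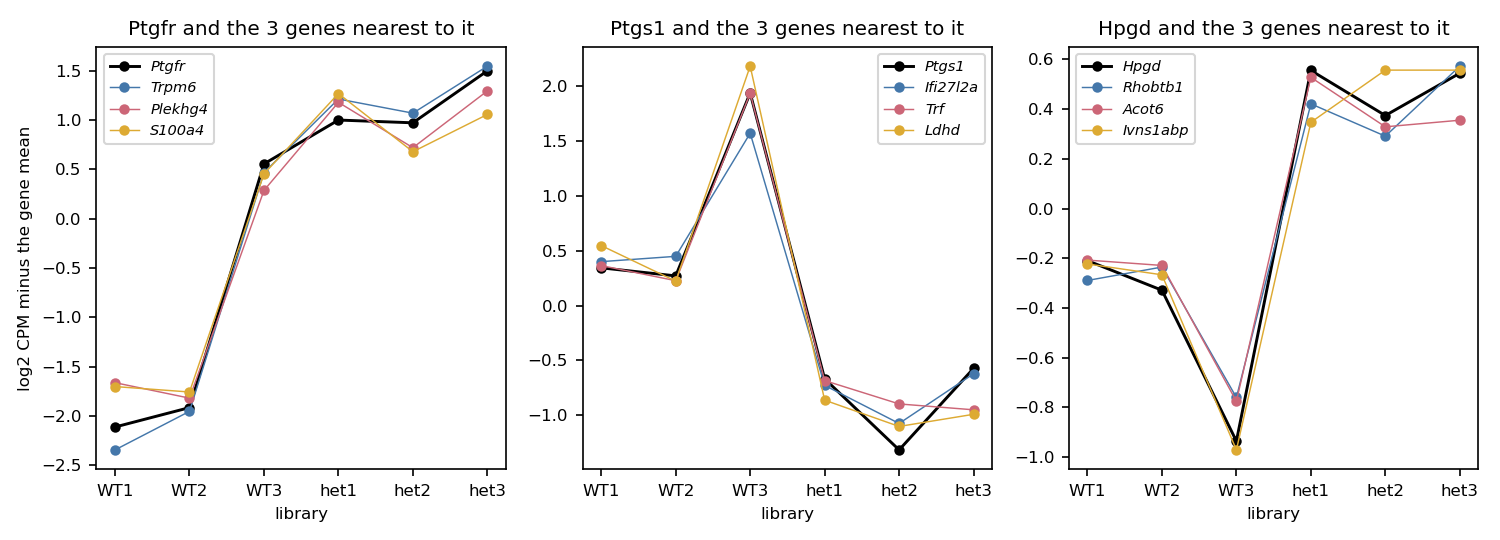
Log2 CPM minus the gene's own mean (vertical axis) in the 6 libraries (horizontal axis; lines only join the points of 1 gene) for Ptgfr, Ptgs1 and Hpgd (black) and the 3 genes of smallest root mean square difference from each. In wild-type replicate 3 the Ptgfr and Ptgs1 sets are above the other wild-type libraries and the Hpgd set is below them.

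The rest of the pathway was described from a list of 40 genes, of which 33 were tested. With all libraries 2 rose (Pla2g4c and Slco3a1), 2 fell (Acsl4 and Ptgfrn) and 29 did not pass, with a median log2 fold change of -0.04. The shares over all genes tested were 3.90% higher and 5.74% lower, so these counts were near the background. Without wild-type replicate 3, 5 rose and 4 fell, against 7.37% and 8.82%. The genotypes did not overlap for 13 of the 33 beside 32.0% of all genes tested, and for 18 of the 33 beside 47.5% without that library.

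Of 14 genes that free or activate arachidonic acid, 8 were tested, and 1 rose and 1 fell. Acsl4, a ligase that attaches arachidonic acid to coenzyme A for storage in lipids, was at 345, 379 and 379 CPM in wild-type and at 215, 211 and 222 CPM in heterozygous ovaries. The groups were far apart, and Acsl4 fell by 0.77 ± 0.07 on the log2 scale (adjusted p = 0.000589), and by 0.74 ± 0.07 without wild-type replicate 3 (adjusted p = 3.54e-05). Pla2g4c, a calcium-independent cytosolic phospholipase, was at 13.1, 11.0 and 12.6 CPM in wild-type and at 19.5, 18.3 and 16.7 CPM in heterozygous ovaries. It rose by 0.57 ± 0.12 (adjusted p = 0.0265). That call held without wild-type replicate 3 (0.60 ± 0.14, adjusted p = 0.0133) and was lost without each of the other 5 libraries in turn, with adjusted p of 0.0554 and 0.0886 without wild-type replicates 1 and 2 and of 0.0909, 0.102 and 0.0663 without heterozygous replicates 1, 2 and 3.

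Of 12 terminal synthases and reductases, none passed with all libraries by edgeR. At an unadjusted p under 0.05, 1 was higher and 3 were lower; DESeq2 called 1 higher and 2 lower, and limma-voom 1 and 0. Akr1c18, which inactivates progesterone and is related to prostaglandin F synthases, was at 86.1, 66.7 and 676 CPM in wild-type and at 2646, 1981 and 2632 CPM in heterozygous ovaries. With all libraries its log2 fold change of 3.13 ± 1.06 missed the threshold (adjusted p = 0.153), though it passed with DESeq2 (0.0229) and limma-voom (0.0178). It rose in the fit without wild-type replicate 3 (4.99 ± 0.21, adjusted p = 6.9e-05). Prxl2b, a synthase of prostamide and prostaglandin F2-alpha, was at 43.3, 52.6 and 18.6 CPM in wild-type and at 21.9, 17.5 and 17.2 CPM in heterozygous ovaries. Wild-type replicate 3 lay within the heterozygous range. The log2 fold change was -1.02 ± 0.37 (adjusted p = 0.157), and without that library Prxl2b fell by 1.34 ± 0.13 (adjusted p = 6.9e-05). Tbxas1, thromboxane synthase, rose in the fit without wild-type replicate 3 (0.77 ± 0.23, adjusted p = 0.0472), and was at 0.35 ± 0.31 with all libraries (adjusted p = 0.533). Ptges3, a cochaperone and prostaglandin E synthase, was at 168 ± 6.49 and 155 ± 10.9 CPM (SD, n = 3 each) and missed the threshold in both fits (log2 -0.12 ± 0.07, adjusted p = 0.368 with all libraries). Akr1b7, an aldose reductase relative named after its values were seen, was at 48.4 CPM in wild-type replicate 3 and between 0.337 and 0.664 CPM in the other 5 libraries.

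Of 7 genes of breakdown and transport, 1 rose and 0 fell by edgeR. At an unadjusted p under 0.05, 1 was lower, and DESeq2 and limma-voom called 0 lower. Slco3a1, an organic anion transporter that carries prostaglandins, was at 79.8, 85.5 and 78.8 CPM in wild-type and at 126, 130 and 123 CPM in heterozygous ovaries. The groups were well apart, with a rise of 0.63 ± 0.07 on the log2 scale (adjusted p = 0.00119), and of 0.62 ± 0.07 without wild-type replicate 3 (adjusted p = 0.000166). Zadh2, a prostaglandin reductase also named PTGR-3, was at 195 ± 20.4 and 224 ± 8.98 CPM (SD, n = 3 each) and did not pass (0.20 ± 0.09, adjusted p = 0.201), nor without wild-type replicate 3 (0.12 ± 0.07, adjusted p = 0.241).

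Of 7 genes in the list of other receptors, which includes the receptor inhibitor Ptgfrn, 6 were tested. With all libraries 1 fell, and this was Ptgfrn. Ptgfrn, a membrane protein that inhibits binding of prostaglandin F2-alpha to its receptor, was at 152, 180 and 172 CPM in wild-type and at 107, 99.3 and 110 CPM in heterozygous ovaries. It fell by 0.67 ± 0.08 on the log2 scale (adjusted p = 0.00282), and by 0.64 ± 0.08 without wild-type replicate 3 (adjusted p = 0.000442). Ptgir, the prostacyclin receptor, had 77, 71 and 43 counts in wild-type and 23, 23 and 35 counts in heterozygous libraries. All heterozygous libraries were lower, and it fell in the fit without wild-type replicate 3 (log2 -1.46 ± 0.38, adjusted p = 0.0238; -1.25 ± 0.38 and adjusted p = 0.0775 with all libraries). Ptgdr2, a receptor of prostaglandin D2 on immune cells, had 11, 8 and 17 counts in wild-type and 28, 40 and 68 in heterozygous libraries. It rose in the fit without wild-type replicate 3 (2.23 ± 0.58, adjusted p = 0.0247) and was just short of the threshold with all libraries (1.90 ± 0.51, adjusted p = 0.0509).

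**Figure D4:**
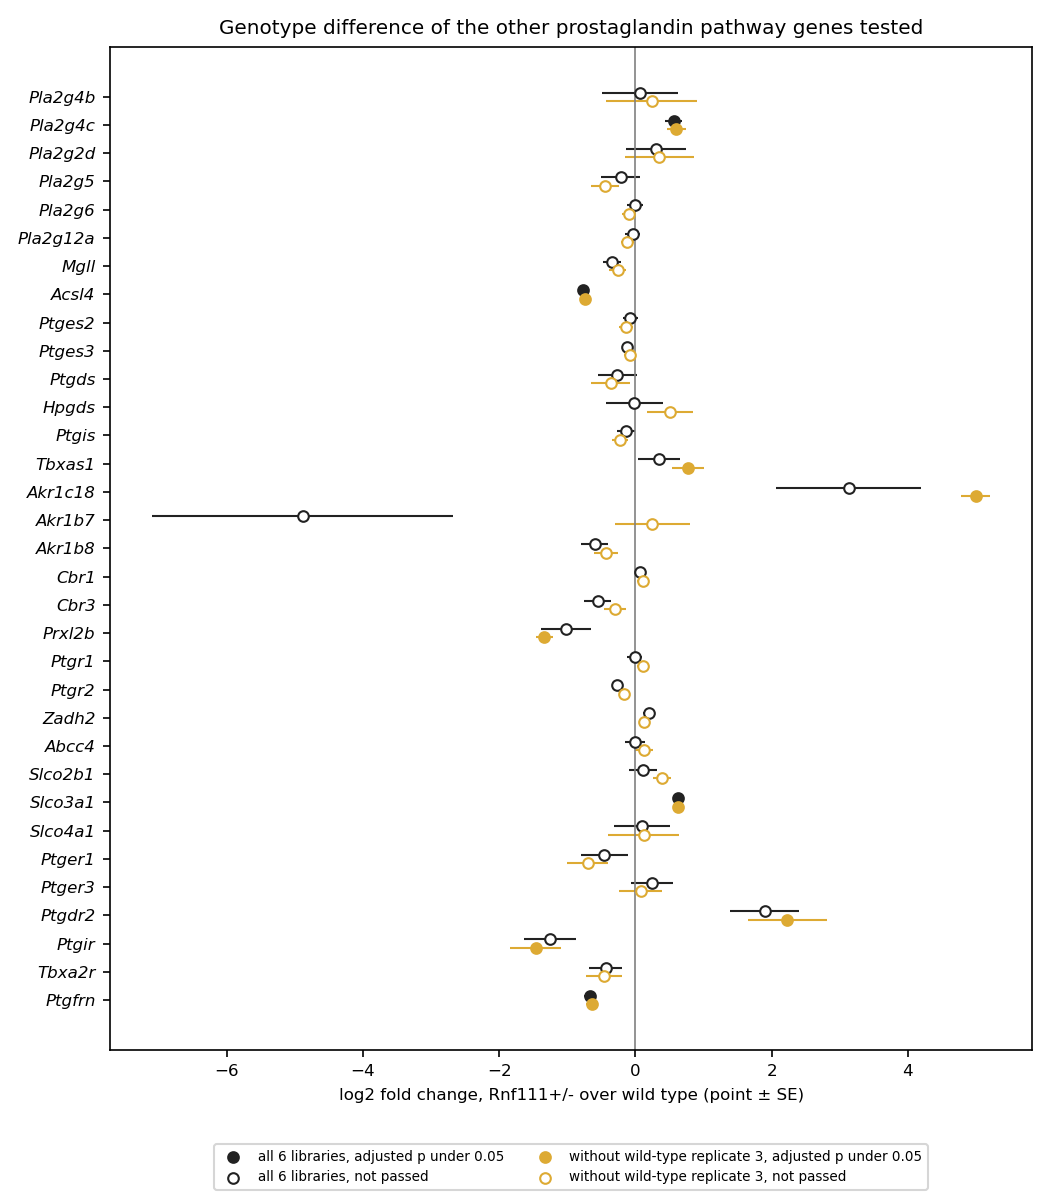
Log2 fold change of Rnf111+/- over wild type (horizontal axis, point ± SE) for the 33 other prostaglandin pathway genes tested, with all 6 libraries (black) and without wild-type replicate 3 (gold); filled points passed at an adjusted p under 0.05. Acsl4, Pla2g4c, Slco3a1 and Ptgfrn passed in both fits, and the points of Akr1c18 and Akr1b7 moved most between the fits.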

How the data were processed

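Bulk RNA sequencing was done on ovaries of 6 mice, 3 wild type and 3 Rnf111+/-. Per the labels' protocols, TRIzol was used for total RNA and the VAHTS Universal V6 kit for libraries. The deposited values are the authors' whole-number read counts per gene, not normalized. The submitters' processing notes name fastp (0.20.1), HISAT2 (2.1.0), HTSeq (0.11.2), DESeq2 (1.38.3) and GRCm39. The sources used here give neither the annotation nor the strand setting, so reads of overlapping or antisense genes cannot be told apart.

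The counts were fitted in R (4.3.3) with edgeR (4.0.16): filterByExpr (minimum count 10, minimum total 15), TMM scaling and a robust quasi-likelihood fit with genotype as the only term, two-sided, with Benjamini-Hochberg adjustment over all 16841 genes tested (17262 without wild-type replicate 3). Standard errors were taken as the size of the log2 fold change over the root of F. P-values cover only the spread between these mice. In simulated counts for the 6-library comparison (16591 genes), the fit recovered 32.8%, 70.1% and 92.2% of genes changed 1.5-, 2- and 4-fold and called 14 unchanged genes. Apart from the set changes, all simulated libraries shared the same gene means, so none stood apart as wild-type replicate 3 did. The simulated shares therefore do not cover a comparison with such a library. Depth differed little, and a count of 3 equals 0.0747 to 0.0784 CPM. By a chi-square test of counts no replicates were duplicates (12.4 per degree of freedom for the closest pair).

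Alternatives were DESeq2 (1.42.0), limma-voom (limma 3.58.1), 2 scalings, 2 filters, a replicate block and leaving out each library. The genes and lists were chosen with earlier results of these data known. Text names all 10 genes, pathway genes called with all libraries or without wild-type replicate 3, the 5 of highest mean CPM, and the 3 nearest in pattern (root mean square difference, prior count 2, mean of at least 10 CPM, no Gm or Rik models) to the 3 genes of widest spread. Of the symbols counted, 96% were in the RefSeq table, including all 10.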

Additional observations from a re-analysis of the deposited data

How the results depend on the processing

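Of 272 single-gene values under 13 alternatives for 21 named genes, 239 kept their direction and side of the threshold, 21 came to pass, 8 were lost and 4 changed sign. The sign changes were in 2 genes that passed in none of these fits: Slco2a1 without wild-type replicates 1 and 2 (-0.138 and -0.129) and heterozygous replicate 1 (-0.150), and Ptger2 without wild-type replicate 3 (0.053). Over the single-library omissions Slco2a1 ran from -0.150 to 0.398 and Ptger2 from -0.219 to 0.053. Leaving out 1 library moved the number of changed genes from 1623 to between 530 and 2795, prostaglandin genes that rose among the 10 from 1 to between 0 and 2, those that fell from 0 to between 0 and 2, other pathway genes that rose from 2 to between 1 and 5 and those that fell from 2 to between 2 and 4. Fewer samples enter these fits, and beyond that the cause was not tested. DESeq2 called 2615 genes, 2 of the 10 lower, and 4 higher and 5 lower pathway genes. With no filter on low counts 1 of the 10 fell (Pla2g4a). With the replicate block 2 of the 10 rose and 1 fell, since Ptges (adjusted p = 0.0337) and Ptgs1 (0.0274) passed, and 1626 genes were called. Same-numbered libraries share only a number: their deviations correlated at 0.012, 0.006 and 0.1, and wild-type replicate 1 correlated best with heterozygous replicate 2 (0.059). Depth limits the genes under 5 CPM, such as Ptgs2, Ptgir and Ptgdr2, most.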
